A study of Mus musculus with 8 samples.

Results

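The 34 genes described here encode the machinery that moves newly made secretory and membrane proteins into the endoplasmic reticulum (ER) and processes them as they enter. They are 6 subunits of the signal recognition particle (SRP) and 2 of its receptor, the Sec61 channel with its partners Sec62, Sec63, Tram1 and Tram2, the 4 subunits of the translocon-associated protein (TRAP) complex, 5 subunits of signal peptidase, and 9 of oligosaccharyltransferase (OST). They were chosen by gene name from the 25050 genes of the arrays, with earlier results of these data known. All 34 had a probe set, and where a gene had more than 1, the one with the highest mean across the 8 arrays was used. RNA was measured on 8 whole-transcript arrays of mammary epithelial cells of FVB mice titled as wild type, all females in a first pregnancy or lactation, with 4 arrays at lactation day 4 (the stage labelled secretory activation) and 4 at pregnancy day 14 (labelled secretory differentiation). At both stages the cells had been depleted of adipocytes by enzymatic digestion of the tissue, and the labels give no age. The series concerns cholesterol secretion and the liver X receptor. Nothing in the labels says that each array came from its own mother, so the p-values below cover only how these samples varied, and that variation may be technical.

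SRP binds the signal sequence of a nascent protein on the ribosome and brings it to the SRP receptor in the ER membrane, where the chain is handed to the Sec61 channel. TRAP and Tram1 sit beside the channel and aid the entry of many chains, signal peptidase cuts off the signal sequence, and OST transfers a preassembled glycan to asparagines of the entering chain. The lactating mammary gland makes caseins and whey proteins, all of which enter the ER through this route.

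Values are GC-RMA values on the log2 scale, so a difference of 1 is a factor of 2. A gene was called where the adjusted p in limma, a linear model with moderated variances fitted over all 25050 genes, was under 0.05. Of the 34 genes, 21 rose at lactation day 4, 1 (Tusc3) fell and 12 were not called. Over all genes, 25.8% were called, 9.73% higher and 16.1% lower. The median log2 fold change, lactation over pregnancy, was 0.41 over the 34 genes and 0.01 over all genes. Positive log2 fold changes were found for 29 of the 34, against 52.8% of all genes. In 19 of the 34 every lactation array lay above every pregnancy array, as it did in 12.1% of all genes, and in 1 the order was the reverse, against 17.4%. The 34 genes lay above the dimmest 40% of genes, and among the remaining 15030 genes the median log2 fold change was -0.10, with 12.9% called higher and 28.1% lower. In bulk samples, more cells of a type and more RNA per cell cannot be told apart.

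**Figure D1:**
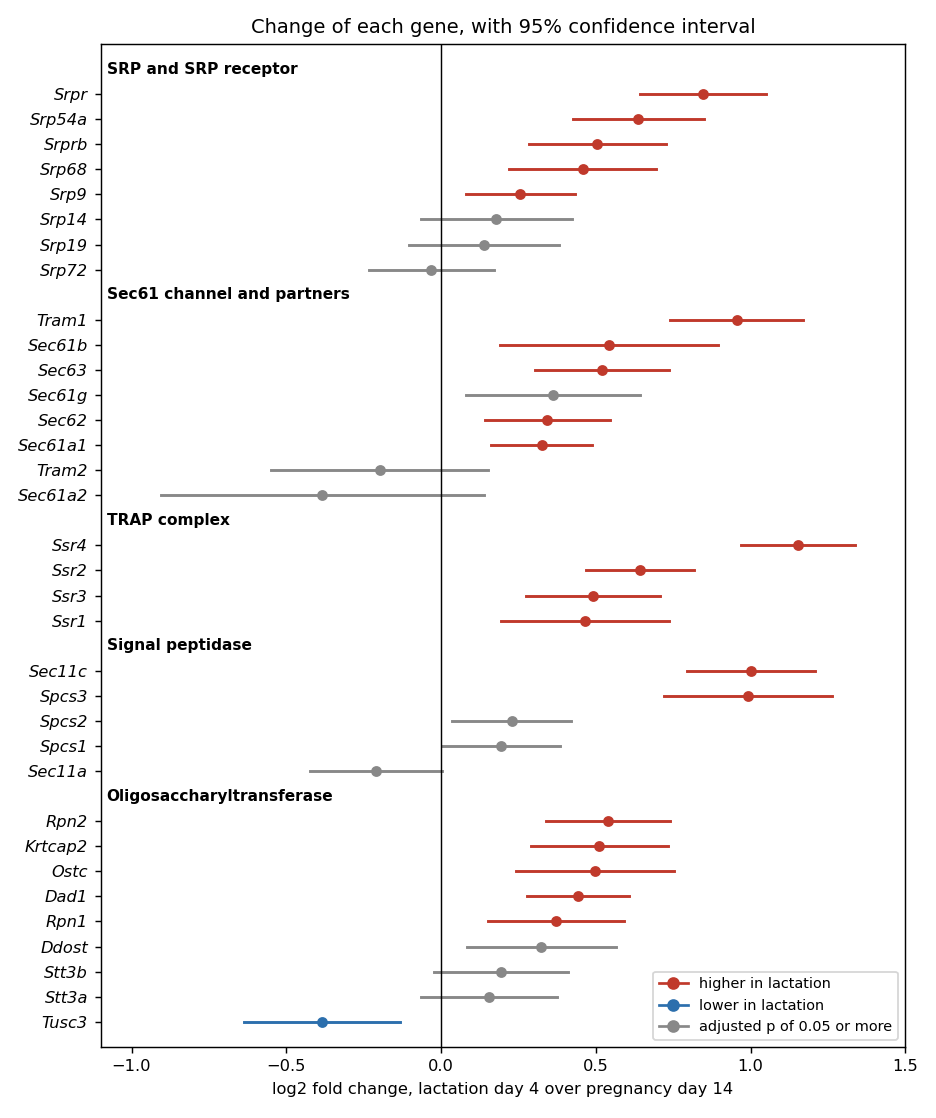
Log2 fold change (lactation day 4 over pregnancy day 14) of each gene on the horizontal axis, grouped by complex, with points for the estimate and bars for the 95% confidence interval from limma. Ssr4 has the highest estimate at 1.15 and Tusc3 the lowest at -0.38, and 21 genes are marked higher, 1 lower and 12 not called.

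At the targeting step, among the 6 SRP subunits 3 rose, with Srp9 counted on its brighter probe set, and both receptor subunits rose. Srpr, the receptor's alpha subunit, a GTPase that docks with SRP, had values of 9.94, 10.18, 10.11 and 10.23 on the lactation arrays, against 9.10, 9.31, 9.21 and 9.46 on the pregnancy arrays. The stages did not overlap, and their means differed by several times the SD within a stage. The log2 fold change was 0.84 (SE 0.091, limma's adjusted p = 1.88e-04), or 1.80-fold. Srprb, the beta subunit that anchors the receptor in the ER membrane, averaged 9.19 ± 0.14 in lactation and 8.68 ± 0.14 in pregnancy (SD, n = 4 each), a rise of 0.50. Srp54a, the SRP subunit that binds the signal sequence and the receptor, stood at 10.19, 10.52, 10.36 and 10.33 in lactation, against 9.49, 9.68, 9.82 and 9.84 in pregnancy. Its values also did not overlap between the stages, and it rose by 0.64 (SE 0.095, limma's adjusted p = 0.00109). Srp54a has close relatives in the mouse genome, so its value is uncertain as to the member.

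Of the other SRP subunits, Srp68 and Srp9 rose and Srp72, Srp14 and Srp19 were not called. Srp68, which binds the SRP RNA as a partner of Srp72, averaged 8.75 ± 0.21 in lactation and 8.30 ± 0.06 in pregnancy (SD, n = 4 each), a rise of 0.46 (SE 0.107, limma's adjusted p = 0.0122). Srp72 itself averaged 9.29 ± 0.14 in lactation and 9.32 ± 0.12 in pregnancy, a log2 fold change of -0.03 with a 95% interval from -0.23 to 0.17. Its sign turned positive with arrays centred on their median (0.0115), with centring on the brighter genes (0.144), and without lactation replicate 3 (0.0027) or pregnancy replicate 4 (0.0173). Srp9 and Srp14 form the part of SRP that slows elongation. The Srp9 probe set used rose by 0.26 (limma's adjusted p = 0.0393). This call ended under 8 of 17 alternatives, among them the mean of all probe sets. Without lactation replicate 1, 2 or 4 or pregnancy replicate 1, 3 or 4 it was also lost. The dimmer Srp9 probe set, the one annotated with the RefSeq transcript, averaged 6.27 in lactation and 6.19 in pregnancy, a difference of 0.08. Srp14 (0.18, limma's adjusted p = 0.249) and Srp19 (0.14, limma's adjusted p = 0.369) were not called.

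The promoters of the 3 genes with the largest rises among those whose window held the letters ACGTG, and that of Krtcap2, the gene with the letters of an ER stress element II, are shown because XBP1 and ATF6, the transcription factors of the unfolded protein response, are known to bind elements with such cores and to act on genes of ER translocation. Windows run from 250 bases before to 50 after the annotated start (RefSeq, build GRCm38.p6, all on the plus strand): Srpr at chr9:35210953-35211252, Srp54a at chr12:55080246-55080545, Sec63 at chr10:42761246-42761545 and Krtcap2 at chr3:89246223-89246522. Capitals mark ACGTG or its reverse complement CACGT and, in Krtcap2, also the ER stress element II.
Srpr: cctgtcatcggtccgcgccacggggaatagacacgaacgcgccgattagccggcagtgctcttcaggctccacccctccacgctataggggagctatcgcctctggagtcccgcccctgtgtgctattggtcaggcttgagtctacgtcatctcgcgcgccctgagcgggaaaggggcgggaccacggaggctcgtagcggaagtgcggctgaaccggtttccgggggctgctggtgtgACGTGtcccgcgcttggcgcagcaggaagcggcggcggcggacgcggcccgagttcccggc
Srp54a: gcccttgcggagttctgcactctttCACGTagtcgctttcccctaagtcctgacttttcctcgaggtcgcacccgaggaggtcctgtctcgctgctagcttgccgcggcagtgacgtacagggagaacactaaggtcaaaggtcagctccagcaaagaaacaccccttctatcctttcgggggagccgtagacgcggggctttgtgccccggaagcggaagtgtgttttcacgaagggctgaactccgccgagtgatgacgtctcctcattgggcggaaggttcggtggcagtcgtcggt
Sec63: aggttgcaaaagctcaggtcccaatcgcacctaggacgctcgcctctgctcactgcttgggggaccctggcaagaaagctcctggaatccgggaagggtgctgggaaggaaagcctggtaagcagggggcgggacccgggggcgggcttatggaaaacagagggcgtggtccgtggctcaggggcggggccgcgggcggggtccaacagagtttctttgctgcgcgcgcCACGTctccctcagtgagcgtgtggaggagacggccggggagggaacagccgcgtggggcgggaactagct
Krtcap2: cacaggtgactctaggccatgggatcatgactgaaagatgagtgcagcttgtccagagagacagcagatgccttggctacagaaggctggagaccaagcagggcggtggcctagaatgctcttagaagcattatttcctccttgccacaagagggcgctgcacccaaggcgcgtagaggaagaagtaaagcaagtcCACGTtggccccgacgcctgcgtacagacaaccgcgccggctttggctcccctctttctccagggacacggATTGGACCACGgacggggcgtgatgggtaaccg

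A window was matched by symbol for 25 of the 34 genes, 27 windows in all, since Rpn2 and Krtcap2 have 2 starts each. Motifs were searched on both strands. ACGTG was found in 12 of 27 windows (44.4%), against 19.6% of all 32851 windows. Of the 21 genes that rose, 14 had a window and 9 of these held ACGTG. Of the 12 not called, 11 had a window and 2 of these held it. Among all genes with a window, 21.8% held it. Ssr4, Sec11c, Spcs3 and Tram1, with the largest rises of the 34 genes, were not among the genes found to hold it. Genes without a window could not be searched, so this may mean only that no window was matched for them. In the windows shown the first base of the ACGTG match on the plus strand lies at -11 from the start in Srpr, -21 in Sec63, -54 in Krtcap2 and -225 in Srp54a. CCAAT was found in 14 of 27 windows (51.9%), against 37.4% of all windows. The ER stress element II, ATTGG and CCACG with 1 base between them, which includes a reversed CCAAT, was found in Krtcap2 alone among the 25 genes with a window, beginning at base 18 of the transcript, and in 0.0365% of all windows. No window of these genes held the ER stress element, CCAAT and CCACG with 9 bases between them (0.119% of all windows), or TGACGTGG (0.676%), which itself includes ACGTG. A match describes letters in the window only.

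At the channel, 5 of 8 genes rose, and Tram1 had the highest log2 fold change of the 8. Tram1, a membrane protein that contacts nascent chains as they enter the channel, had 11.04, 11.30, 11.18 and 11.46 in lactation, against 10.16, 10.34, 10.21 and 10.46 in pregnancy. Every lactation array lay well above every pregnancy array, at a log2 fold change of 0.95 (SE 0.096, limma's adjusted p = 1.20e-04), or 1.94-fold. Sec61a1, the pore-forming subunit, had 10.75, 10.85, 10.83 and 10.98 in lactation, against 10.40, 10.52, 10.48 and 10.69 in pregnancy. The stages were close but did not overlap, and the rise of 0.32 had an SE of 0.073 (limma's adjusted p = 0.00968). The small tail-anchored subunit Sec61b averaged 7.47 ± 0.34 in lactation and 6.93 ± 0.12 in pregnancy (SD, n = 4 each), and its rise of 0.54 (limma's adjusted p = 0.031) lost its call when any 1 of lactation replicates 1, 2 or 4 or pregnancy replicates 1, 3 or 4 was left out. The other small subunit, Sec61g, had a log2 fold change of 0.36 and just missed the threshold (limma's adjusted p = 0.059). It passed under 4 of 17 alternatives: median centring, centring on the brighter genes, and leaving out the dimmest genes or lactation replicate 3.

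Sec63, which recruits the chaperone BiP to the lumenal side of the channel, and its partner Sec62, which serves chains that arrive after their synthesis, both rose. Sec63 had 9.26, 9.50, 9.46 and 9.66 in lactation, against 8.91, 8.84, 8.94 and 9.12 in pregnancy, with no overlap. Its log2 fold change was 0.52 (SE 0.097, limma's adjusted p = 0.00375), and that of Sec62 was 0.34 (SE 0.091, limma's adjusted p = 0.0211). The difference between these 2 rises was not tested. The call of Sec62 ended without lactation replicate 4 or pregnancy replicate 2 or 4.

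All 4 TRAP subunits rose, with a median of 0.57. Ssr4, the delta subunit, changed most of all 34 genes. Its values were 10.95, 11.13, 11.04 and 11.24 on the lactation arrays, against 9.97, 10.11, 9.86 and 9.81 on the pregnancy arrays. The gap between the stages was far wider than the spread within either, at a log2 fold change of 1.15 (SE 0.082, limma's adjusted p = 1.52e-05), or 2.22-fold. Ssr2, the beta subunit, had 11.10, 11.06, 11.08 and 11.21 in lactation, against 10.37, 10.46, 10.35 and 10.69 in pregnancy, and rose by 0.64 (SE 0.078, limma's adjusted p = 3.58e-04). Ssr3, the gamma subunit, rose by 0.49 (SE 0.097, limma's adjusted p = 0.00524). Ssr1, the alpha subunit, rose by 0.47 (limma's adjusted p = 0.0202), but its stages overlapped, since pregnancy replicate 4 reached 9.55 and lactation replicate 1 stood at 9.53, and its call ended without lactation replicate 2 or pregnancy replicate 1, 2 or 3.

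**Figure D2:**
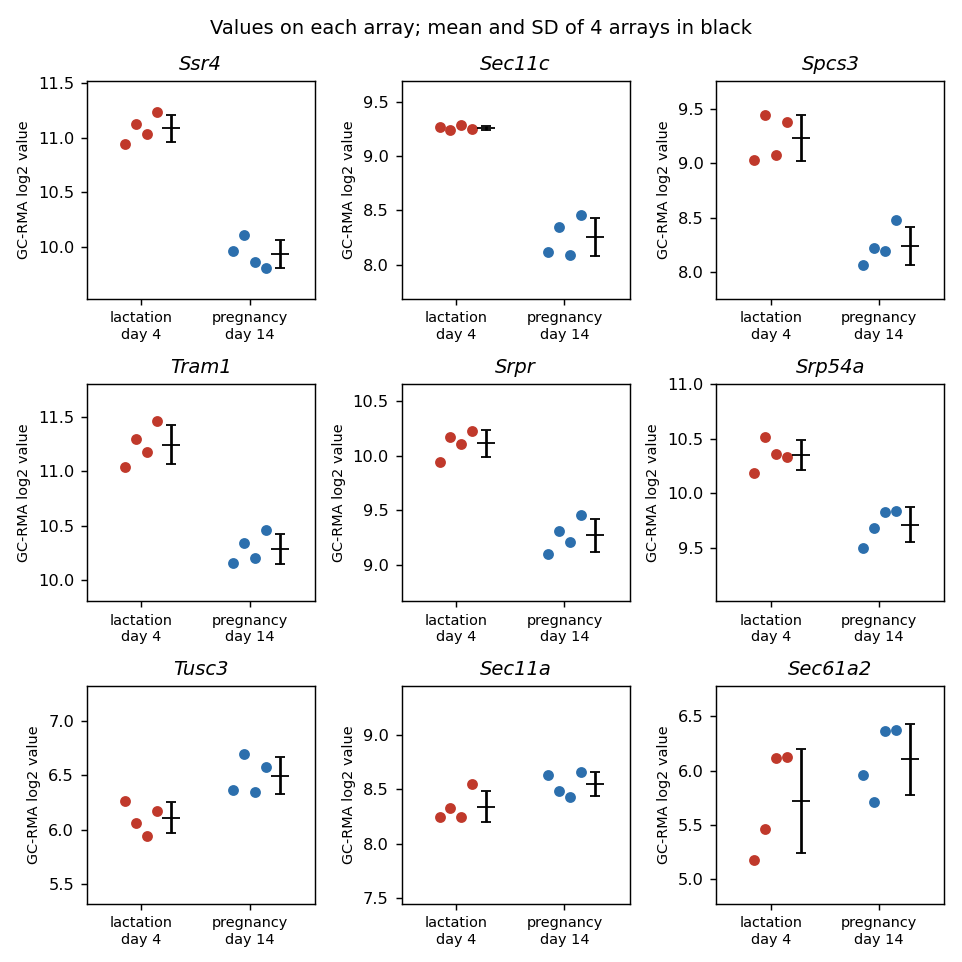
GC-RMA log2 value (vertical axis, each panel spanning 2 log2 units) on each of the 4 lactation day 4 arrays (red) and 4 pregnancy day 14 arrays (blue) for 9 genes, with the mean and SD in black. Ssr4, Sec11c, Spcs3, Tram1, Srpr and Srp54a show no overlap with lactation higher, Tusc3 no overlap with lactation lower, and Sec11a and Sec61a2 overlap.

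In signal peptidase 2 subunits rose and 3 were not called. Sec11c, 1 of the 2 alternative catalytic subunits, had 9.26, 9.24, 9.28 and 9.25 in lactation, against 8.12, 8.35, 8.09 and 8.46 in pregnancy. The lactation arrays were nearly identical, and the log2 fold change was 1.00 (SE 0.093, limma's adjusted p = 6.80e-05). Spcs3, an accessory subunit required for cleavage in yeast, had 9.03, 9.44, 9.07 and 9.38 in lactation, against 8.07, 8.22, 8.19 and 8.48 in pregnancy, a 1.99-fold rise (log2 fold change 0.99, SE 0.122, limma's adjusted p = 3.79e-04). Spcs1 and Spcs2, small membrane subunits, had log2 fold changes of 0.19 and 0.23 (limma's adjusted p = 0.125 and 0.0772). The Spcs2 values did not overlap between the stages, and Spcs2 passed the threshold without lactation replicate 3 or with centring on the brighter genes. Sec11a, the other catalytic subunit, had 8.24, 8.33, 8.24 and 8.55 in lactation, against 8.64, 8.49, 8.43 and 8.66 in pregnancy. These values overlapped, at a log2 fold change of -0.21 (SE 0.096, limma's adjusted p = 0.13).

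In OST, 5 of 9 genes rose, Tusc3 fell and the catalytic subunits were not called. Rpn2, ribophorin II, had 9.76, 9.77, 9.65 and 9.99 in lactation, against 9.16, 9.27, 9.16 and 9.42 in pregnancy. It rose by 0.54 without overlap (SE 0.090, limma's adjusted p = 0.00209). Dad1, a small subunit needed for the stability of the complex, averaged 10.90 ± 0.08 in lactation and 10.46 ± 0.13 in pregnancy (SD, n = 4 each), a rise of 0.44 (limma's adjusted p = 0.00208). Rpn1, ribophorin I, rose by 0.37 (limma's adjusted p = 0.0214, a call that ended without lactation replicate 1 or 4 or pregnancy replicate 1, 2 or 3), and Ddost had a log2 fold change of 0.32 at the edge of the threshold (limma's adjusted p = 0.0503, passing it under 9 of 17 alternatives, among them those without lactation replicate 3 or pregnancy replicate 4).

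Ostc and Krtcap2 belong to the OST form that holds STT3A and works beside the channel. Krtcap2, whose promoter is printed above, had 9.75, 9.68, 9.55 and 9.77 in lactation, against 8.97, 9.13, 9.18 and 9.43 in pregnancy, and rose by 0.51 (SE 0.099, limma's adjusted p = 0.00476). Ostc averaged 9.49 ± 0.19 in lactation and 8.99 ± 0.17 in pregnancy (SD, n = 4 each), a rise of 0.50 (SE 0.114, limma's adjusted p = 0.011). Both were without overlap between the stages. The catalytic subunit of that form, Stt3a, averaged 10.58 ± 0.17 in lactation and 10.43 ± 0.16 in pregnancy, and Stt3b, that of the form acting on sites skipped during entry, 9.51 ± 0.16 in lactation and 9.32 ± 0.13 in pregnancy (SD, n = 4 each). Their log2 fold changes of 0.15 and 0.19 did not pass the test (limma's adjusted p = 0.268 and 0.17).

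Tusc3 is an oxidoreductase subunit of the STT3B form and an alternative to Magt1, which is outside the 34 genes. Tusc3 had 6.27, 6.06, 5.94 and 6.18 in lactation, against 6.37, 6.70, 6.34 and 6.57 in pregnancy. Every lactation array was lower, at a log2 fold change of -0.38 (SE 0.113, limma's adjusted p = 0.0319). Its sign held under all 17 alternatives, but its call ended under 6 of them: quantile normalization, centring on the brighter genes, and leaving out lactation replicate 2 or 3 or pregnancy replicate 2 or 4 (limma's adjusted p from 0.0224 to 0.199 over the 17). Magt1 averaged 9.28 ± 0.21 in lactation and 8.64 ± 0.11 in pregnancy (SD, n = 4 each) and rose by 0.63 (SE 0.109, limma's adjusted p = 0.00241).

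Alternative subunits were then compared directly, by taking the difference between 2 paralogs on each array and comparing the stages with a two-sided exact permutation test over the 8 arrays. There were 5 such pairs, and the smallest p the design allows is 0.0286. An adjusted p under 0.05 was reached only because Sec11a minus Sec11c, Tram1 minus Tram2 and Tusc3 minus Magt1 all had that smallest p. The pairs use the same values as the limma calls above, so they are not separate evidence. For Sec11a minus Sec11c the differences were -1.02, -0.91, -1.04 and -0.70 in lactation, against 0.52, 0.13, 0.34 and 0.20 in pregnancy. The sign turned between the stages, a shift of -1.21 (exact p = 0.0286, Benjamini-Hochberg adjusted p = 0.0476 over the 5 pairs). Since the 2 values come from different probe sets, the shift shows unequal change and not which RNA is the more abundant.

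Tram1 minus Tram2 averaged 4.14 ± 0.29 in lactation and 2.99 ± 0.16 in pregnancy (SD, n = 4 each), a shift of 1.15 at the same exact p of 0.0286 and adjusted p of 0.0476. Tram2, a relative linked in other studies to collagen synthesis, was itself not called, with 7.10 ± 0.26 in lactation and 7.30 ± 0.25 in pregnancy. Tusc3 minus Magt1 averaged -3.16 ± 0.26 in lactation and -2.14 ± 0.20 in pregnancy (SD, n = 4 each), a shift of -1.02 (exact p = 0.0286, adjusted p = 0.0476). In these 3 pairs no array of a stage overlapped the other stage.

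The other pairs did not pass. Sec61a1 minus Sec61a2 averaged 5.13 ± 0.41 in lactation and 4.42 ± 0.29 in pregnancy (SD, n = 4 each), a shift of 0.71 with an exact rank-based 97.1% interval from -0.09 to 1.45 (exact permutation p = 0.0571, adjusted p = 0.0714). Sec61a2, the dimmer alternative pore subunit, ranged from 5.18 to 6.13 in lactation and from 5.71 to 6.37 in pregnancy, the widest scatter of the 34 genes. For Stt3a minus Stt3b, with 1.07 ± 0.06 in lactation and 1.11 ± 0.08 in pregnancy (SD, n = 4 each), the shift was -0.04, with a 97.1% interval from -0.22 to 0.09 (exact permutation p = 0.486, adjusted p = 0.486).

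**Figure D3:**
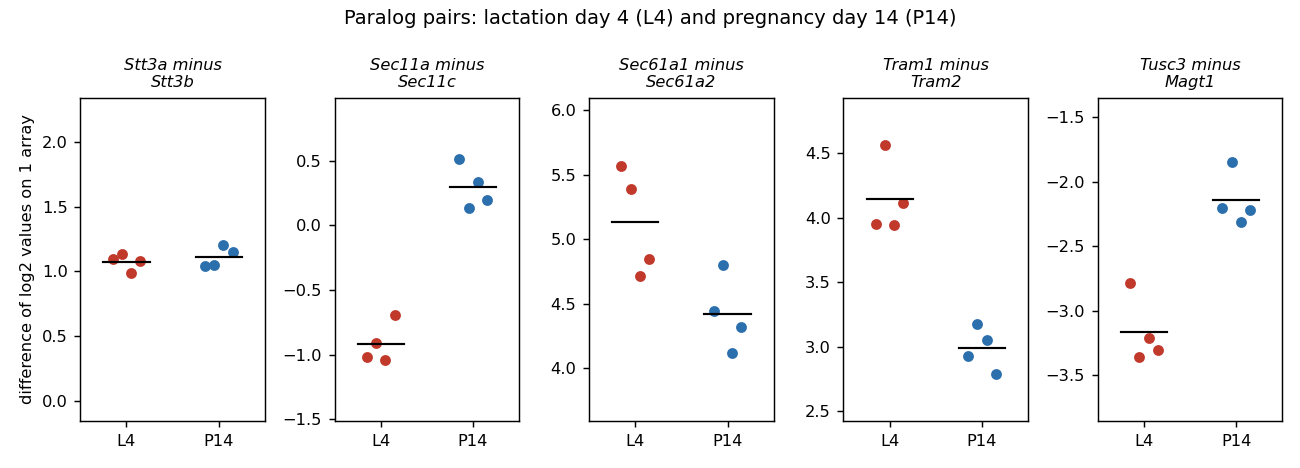
Difference between the log2 values of 2 paralogs on the same array (vertical axis, log2 units, all panels with the same span), with 1 point per array, lactation day 4 (L4) left in red and pregnancy day 14 (P14) right in blue, and bars for the means. Sec11a minus Sec11c is negative on all 4 lactation arrays and positive on all 4 pregnancy arrays, while Stt3a minus Stt3b is about 1.1 in both stages.

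Within a stage, the same arrays were often high or low across the 34 genes. Pregnancy replicate 4 held the highest pregnancy value in 27 of the 34 genes, and the mean of the 34 genes was 8.95 on that array, against 8.73 to 8.80 on the other pregnancy arrays. Lactation replicate 4 held the highest lactation value in 18 genes and lactation replicate 3 the lowest in 19, with means of 9.28 and 9.09. The range of these means was 9.09 to 9.28 in lactation and 8.73 to 8.95 in pregnancy, without overlap. Without pregnancy replicate 4, 19 genes were called higher and none lower in limma, and without lactation replicate 3, 24 and none. In both of these fits Tusc3 remained negative but not called.

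**Figure D4:**
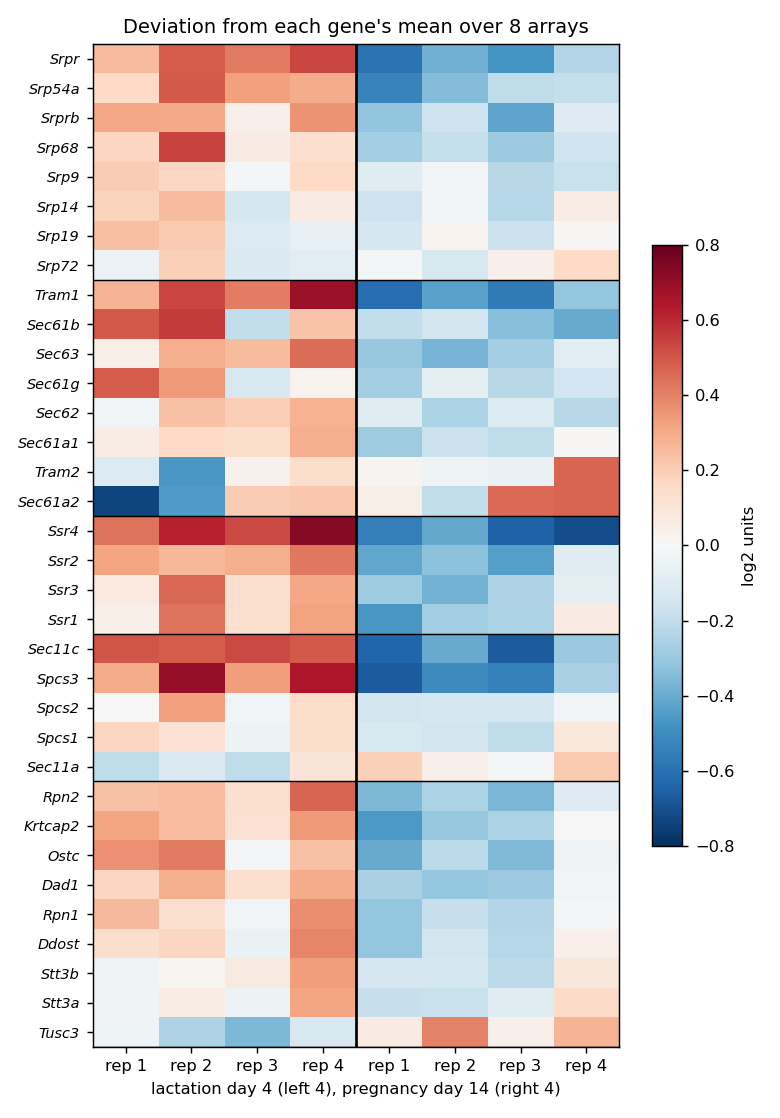
Deviation of each array from the gene's mean over all 8 arrays (colour, log2 units, red higher and blue lower), with genes in rows by complex and the 4 lactation day 4 arrays left of the 4 pregnancy day 14 arrays. Most rows are red on the left and blue on the right, while Tusc3, Sec11a, Sec61a2 and Tram2 have negative log2 fold changes (-0.38, -0.21, -0.38 and -0.20) and the pregnancy replicate 4 column holds the highest pregnancy value in 27 of the 34 rows.

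Scaling moved the number of calls but not the direction of the 34 genes as a group. Their median was 0.44 under quantile normalization and 0.45 when each array was centred on its median. Centring each array on its brighter 60% of genes, an alternative added after the data were seen, gave 0.58. That centring moved the median of all genes to 0.19. It shifts every gene on an array by the same amount. The 34 genes therefore stood 0.39 above the median of all genes with or without it, which is no check of the result. Lower genes made up 62.3% of all calls on the values as deposited, 53.2% after quantile normalization and 47.1% with median centring, while centring on the brighter genes gave 10807 higher and 2373 lower calls.

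Neighbouring steps of the pathway were described from lists of other genes in the same limma fit, read against the same 9.73% called higher and 16.1% called lower. In a list of 3 further OST subunits and malectin, Magt1 and malectin (Mlec) rose and the subunits Ost4 and Tmem258 were not called. Mlec, a lectin that binds glycans soon after their transfer, rose by 0.81 (SE 0.093, limma's adjusted p = 2.59e-04). In the translocon that inserts multipass membrane proteins 3 of 7 genes rose and none fell, led by Rab5if (0.47), Nomo1 (0.45) and Ccdc47 (0.41, not called without lactation replicate 1, 2 or 4 or pregnancy replicate 1 or 3), with a list median of 0.25.

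Of 23 genes for synthesis of the glycan donor, the lipid-linked oligosaccharide, 5 rose and 2 fell, with a median of 0.04. The mannosyltransferases Alg11 and Alg3 rose by 0.80 (SE 0.145, limma's adjusted p = 0.00328) and 0.77 (SE 0.099, limma's adjusted p = 4.87e-04), and Nus1, a subunit of the enzyme that makes the dolichol chain, by 0.62. Dpm1, the catalytic subunit of dolichol-phosphate mannose synthase, fell by 0.42, and Mpdu1, needed for use of dolichol-linked sugars, fell by 0.33. The Dpm1 call was lost under 9 of 17 alternatives, among them those without lactation replicate 2 or any 1 of the pregnancy arrays. Under quantile normalization 6 rose and 1 fell, with median centring 5 and 1, and with centring on the brighter genes 7 and 0.

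After glycan transfer, 3 of 12 genes of trimming and lectin-assisted folding rose and 1 fell, with a median of 0.08. The 3 were Edem3 (0.79), Edem1 (0.72) and Edem2 (0.66), all of which direct misfolded glycoproteins to degradation. Pdia3, the oxidoreductase that works with calnexin and calreticulin, fell by 0.38 (SE 0.098, limma's adjusted p = 0.0196), and was not called with centring on the brighter genes. With that centring 6 of the 12 rose and none fell.

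Other routes of membrane insertion changed in both directions. In the ER membrane complex (EMC) and the GET pathway for tail-anchored proteins 5 of 16 genes rose and 3 fell, with a median of 0.03. Emc3 (0.66, SE 0.066, limma's adjusted p = 1.22e-04), Emc6 (0.51) and Mmgt1 (0.45), all EMC subunits, rose most. Bag6, a chaperone that hands tail-anchored proteins to the GET pathway, fell by 0.45 (limma's adjusted p = 0.00379), followed by Caml, a subunit of the GET receptor (-0.37), and Emc8 (-0.32). The Caml call was lost under 8 of 17 alternatives, among them those without lactation replicate 1 or 2 or pregnancy replicate 1, 3 or 4, and the Emc8 call under 9, among them those without lactation replicate 2, 3 or 4 or pregnancy replicate 1, 2 or 4. Under quantile normalization 7 rose and 1 fell, with median centring 6 and 1, and with centring on the brighter genes 8 and 1.

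In a list of 8 ribosome receptors, signal peptide peptidases and related membrane proteins 2 rose and 3 fell, with a median of 0.01. H13, signal peptide peptidase, which cuts signal peptides after their release, rose by 0.52 (SE 0.071, limma's adjusted p = 6.71e-04), and Rrbp1, a ribosome-binding protein of rough ER, by 0.29. The related proteases Sppl2b and Sppl3, which act outside the ER, fell by 0.57 and 0.42, and Ckap4, a protein of ER sheets, by 0.39. Rrbp1 was not called without lactation replicate 2 or 4 or pregnancy replicate 1, 2 or 3, and the Ckap4 call was lost under 8 of 17 alternatives, among them those without lactation replicate 2 or 3 or pregnancy replicate 1, 2 or 3. Quantile normalization gave 2 higher and 2 lower, and centring on the brighter genes 3 higher and 2 lower.

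Of 10 sensors and transcription factors of ER stress 2 rose and 1 fell, with a median of 0.02. Xbp1 averaged 11.54 ± 0.13 in lactation and 11.14 ± 0.12 in pregnancy (SD, n = 4 each), a rise of 0.40 (SE 0.079, limma's adjusted p = 0.00489), and Atf4, a factor of the integrated stress response, rose by 0.54. Ern1, encoding the sensor IRE1 that splices Xbp1 RNA, fell by 0.64 (SE 0.114, limma's adjusted p = 0.00313). Quantile normalization gave 3 higher and 1 lower, and centring on the brighter genes 4 and 1. These values do not measure splicing of Xbp1. Atf6 had a log2 fold change of 0.33 (limma's adjusted p = 0.0777).

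**Figure D5:**
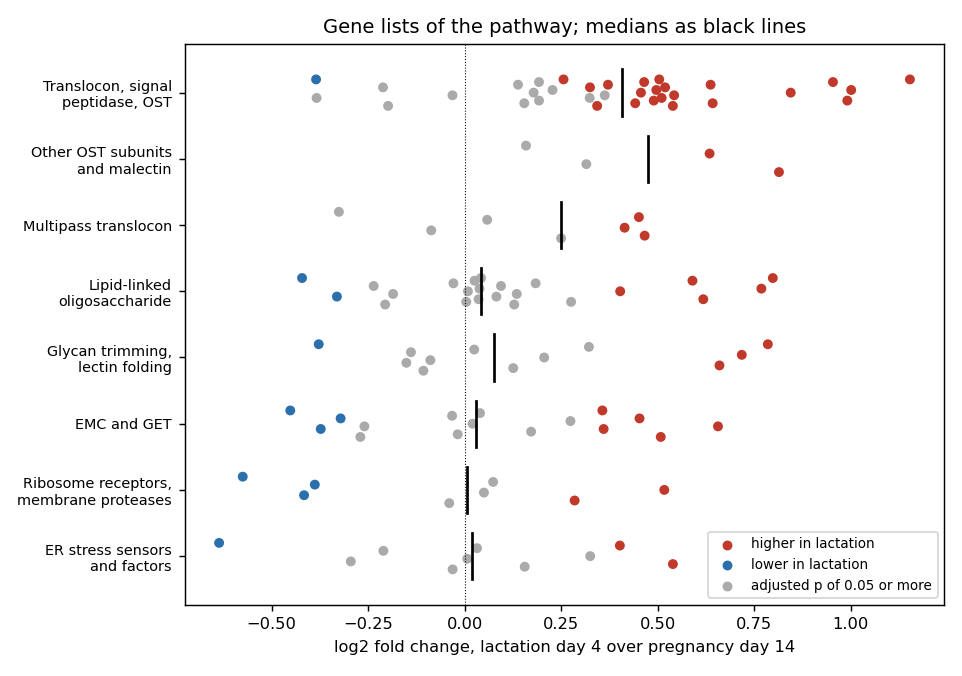
Log2 fold change (lactation day 4 over pregnancy day 14, horizontal axis) of each gene in the 34-gene set (top row) and in 7 lists of neighbouring pathway steps, coloured by call, with the list median as a black line. The median is 0.41 for the 34 genes and lies between 0.01 and 0.08 in 5 of the 7 lists, the others being 0.48 for the list of other OST subunits and malectin and 0.25 for the multipass translocon.

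The labelled cell type was checked with marker genes. All 5 milk protein genes used as alveolar markers rose, with array means of 12.50 to 12.63 in lactation and 11.75 to 12.00 in pregnancy, while 7 of 9 luminal markers fell and 1 rose (8.33 to 8.45 in lactation, 9.53 to 9.84 in pregnancy). Krt8, a keratin of luminal cells, averaged 9.97 ± 0.13 in lactation and 10.93 ± 0.19 in pregnancy (SD, n = 4 each). Markers of other cells were also measurable. Of 8 T cell markers 7 fell (4.81 to 5.59 in lactation, 5.75 to 7.30 in pregnancy), and of 7 fibroblast markers 6 fell (6.47 to 7.77 in lactation, 8.07 to 8.91 in pregnancy). Of 7 macrophage markers 3 fell (5.98 to 7.02 in lactation, 6.96 to 7.51 in pregnancy), and all 5 red blood cell markers fell (9.27 to 9.79 in lactation, 9.95 to 10.81 in pregnancy). Of 10 B and plasma cell markers 1 rose and 1 fell (5.0 to 5.78 in lactation, 5.24 to 6.22 in pregnancy). The plasma cell genes Jchain, Mzb1 and Tnfrsf17 had log2 fold changes of -0.01, -0.17 and -0.01, and Derl3, a gene of ER degradation that other secretory cells also use, rose by 1.68. Of 7 basal markers 1 rose and 1 fell, of 6 endothelial markers none was called, and of 6 adipocyte markers 1 rose. The part of these shifts in the changes of the 34 genes was not tested.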

How the data were processed

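RNA of 4 lactation day 4 and 4 pregnancy day 14 samples was hybridised to Affymetrix whole-transcript arrays. The deposited log2 values were made by the authors with GC-RMA, a method that removes background estimated from probe sequence before normalizing and summarising. Per the submitters' processing notes the tools were GCRMA and Partek; versions, options and array annotation release: not given in the sources used here. The other deposited table matched it exactly (largest difference 0). No value column was left unused.

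Of 35556 probe sets, 26836 had a symbol. Symbols were updated with the RefSeq table of GRCm38.p6, used for names, and promoter sequences came from RefSeq at that build. The stages were compared with limma 3.58.1 (run in R 4.3.3; lmFit, eBayes with intensity trend, Benjamini-Hochberg over 25050 genes, threshold 0.05), with no filter on dim genes and no block. The number of arrays limits precision: the median half-width of the 95% interval was 0.22 for the 34 genes. Simulated shifts of 0.5, 1 and 2, put into 67, 67 and 66 of the 25050 genes, were recovered in 56.7%, 94% and 100% of cases. The simulation gave 174 calls, against 6463 in the data. The p needed for a call was therefore smaller in the simulation, and these shares do not carry over to the data. Paralog pairs were tested with exact permutations.

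The genes named are all 34, up to 3 called genes per direction of each of 7 lists of neighbouring steps, Magt1, and markers. The members, lists and motifs were chosen with earlier results of these data known. Of the listed genes Ubl4a had no probe set under its symbol and Hm13 is listed as H13. A few genes are named outside this rule, chosen after their values were seen (Atf6, Ost4 and Tmem258). Alternatives covered normalization, centring, variance model, array weights, a filter on the dimmest 40%, probe set summary, the replicate block and leaving out each array.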

Additional observations from a re-analysis of the deposited data

Results flagged for a closer look

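In 124 groups of 4 arrays (34 genes and the 28 named neighbours, in each stage), 3 had an array whose gap to the nearest other array, divided by the range of its group, was above Dixon's 95% critical value for 4 samples, at ratios of 0.855 for Tram2, 0.932 for Spcs2 and 0.864 for Bag6. About 1 in 20 such groups is expected by chance. Tram2 stood at 7.67 on pregnancy day 14 replicate 4, against 7.15 to 7.23 on the other pregnancy arrays. Spcs2 stood at 9.46 on the same array, against 9.34 to 9.35 on the others. Bag6 stood at 7.86 on lactation day 4 replicate 2, against 7.66 to 7.68 on the other lactation arrays.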

How the results depend on the processing

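Of the 22 called genes among the 34, 16 kept their call and direction under all 17 alternatives, and the direction of the group median held under every one. With an array left out, 17 to 24 genes were called higher, 0 to 1 lower, and the median ran from 0.37 to 0.47. The fall of Tusc3 was not called (0 lower) under quantile normalization or centring on the brighter genes. That centring, added after seeing the data, gave 29 higher genes, a median of 0.58, a median of all genes of 0.19, 13180 calls over all genes against 6463, 4 calls in the list of other OST subunits and malectin and 5 among ER stress genes. Leaving out the dimmest genes moved the median of all genes to -0.10. With an array left out, all genes gave 4415 to 6426 calls, the list of EMC and GET genes 5 to 8 and that of ribosome receptors and signal peptide peptidases 3 to 5. Srp72, not called, turned positive under median centring (0.0115), centring on the brighter genes (0.144), and leaving out lactation replicate 3 (0.0027) or pregnancy replicate 4 (0.0173). The cause of these shifts was not tested. Shifts between paralogs under alternatives stayed within -1.29 to -1.14 for Sec11a minus Sec11c, 1.01 to 1.22 for Tram1 minus Tram2 and -1.15 to -0.87 for Tusc3 minus Magt1. With 3 arrays in a stage the smallest exact permutation p is 0.0571, so the fits with an array left out give values and no call.

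Replicate numbers are shared by the stages, though the letters in the titles differ for replicate 4, and deviations of same-numbered arrays from their stage means correlated at 0.24, -0.16, 0.15 and 0.18 across genes, so the numbers were not taken as pairs. With the replicate block, 22 of the 34 genes were called higher and 1 lower, with a median of 0.41, against 21, 1 and 0.41 without it, and 6465 of all genes were called, against 6463.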
